A study of Rattus norvegicus with 22 samples.

Results

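The rats described here are the 11 injured animals of a tamoxifen study, out of 22 animals with arrays, and the question is how they differed from one another within their own treatment group. Adult male Long-Evans rats received a severe contusion of the spinal cord at the ninth thoracic level, made by a 10 g rod falling 50 mm, and a single intraperitoneal injection 30 min later. In SCI/TMX+ (n = 6, rats 7b to 12b) the injection held tamoxifen at 5 mg/kg, and in SCI/TMX- (n = 5, rats 13c and 15c to 18c) it held the vehicle alone, ethanol and corn oil. Both groups also had ketamine and xylazine anaesthesia and tramadol. The 11 sham rats (Sham/TMX-, n = 5, and Sham/TMX+, n = 6) had soft tissue surgery without laminectomy, so opening of the spine and contusion go together in every comparison with them. RNA came from 20 mm of cord taken at 24 h, stripped of its dura and then split sagittally before freezing. It was hybridised to whole-transcript arrays of 23188 transcripts, 1 array per rat. All values are log2 signals. For SDs, correlations, components and list means each was centred, which means that the mean of the rat's own treatment group was subtracted. Centring takes out the difference of means between tamoxifen and vehicle, but not a difference in spread or in slope. Signals read in single rats, and their medians and ranges, are given uncentred and still hold the treatment difference.

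A contused cord at 24 h holds dying tissue, blood, the first infiltrating leukocytes, surviving glia and neurons, and the meninges around them. Genes that answer one signal, such as interferon or a glucocorticoid, and genes used by one cell type rise and fall together when that signal or that cell type differs between samples. Bulk RNA does not separate fewer cells of a type from less RNA per cell. The defining transcripts of the tissue were present in every injured rat. Snap25, a synaptic membrane fusion protein, lay between 11.1 and 11.8, Mbp, a major protein of myelin, between 12.3 and 12.5, and Gfap, the intermediate filament of astrocytes, between 11.3 and 11.6. The median array signal was between 5.41 and 5.47, since the deposited values had been brought to one distribution.

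Rats 13c and 15c, both of SCI/TMX-, had the highest scores on the first principal component, and results that rest on them are given with and without them. The first principal component of the centred values held 28.9% of the within-group variance of the 11 injured rats, where an even spread would give 11.1%, and the first component of the sham rats held 15.7%. Rat 15c scored 37.7 and rat 13c 16.5 on it. The other 3 rats of SCI/TMX- scored between -22.2 and -14.9, and SCI/TMX+ spanned -18.3 (11b) to 9.88 (9b). Genes weighing most toward 13c and 15c included Ndufa1, a subunit of mitochondrial complex I, Serpinh1, a collagen chaperone, and S100a4, a calcium-binding protein. Genes weighing most against them included Kcnip3, a neuronal calcium sensor, Slc17a5, the lysosomal sialic acid exporter, Ppif, mitochondrial cyclophilin D, and Rab9a, a GTPase of endosome traffic. The direction also went with the signal itself. The mean centred value of 15c was -0.092 in the 25% of transcripts with the highest signal and 0.058 in the 25% with the lowest, and its 1057 odorant receptor transcripts, which cord tissue is not known to use, averaged 0.067. Rat 16c had the opposite values, 0.076, -0.058 and -0.057, while 13c was closer to 15c (-0.041, 0.028 and 0.019). Rats 10b (-0.034, 0.025 and 0.027) and 9b (-0.027, 0.021 and 0.026) were much like 13c. Rats 11b (0.052, -0.035 and -0.030) and 18c (0.043, -0.029 and -0.036) leaned toward 16c. The part of this compression of the signal in the component was not tested. Rats 13c and 15c were not alike in every direction. On the third component (11.3% of the variance) they scored 28.9 and -17.7, and on the second (12.2%) 11b scored highest, with 29.9. Of the within-group sum of squares, 15c held 16.7%, 11b 11.6% and 13c 10.5%. Without 13c and 15c, the first component held 23.1% against an even share of 14.3% and separated rat 11b (score 35.1) from the remaining 8 (-10.2 to 4.36).

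The within-group SD of a transcript had a median of 0.206 over the 23188 transcripts in injured rats, with 5th and 95th percentiles of 0.104 and 0.359. In sham rats the median was 0.166, and in the injured rats without 13c and 15c it was 0.181. An SD above 0.5 was found for 171 transcripts in injured and 51 in sham rats. Of the 25 named genes ranked first by SD, 8 are inducible by interferon, namely Igtp, Cxcl10, Ifih1, Rsad2, Ifit1, Cxcl11 and Ifit2 of the interferon list used below and the GTPase gene Ifgga2l1, which is not on it, with SDs from 0.705 to 0.768. Without 11b alone the SD was 0.398 for Ifih1, 0.409 for Ifit2, 0.527 for Cxcl10, 0.555 for Cxcl11 and 0.561 for Ifgga2l1. It was 0.608 for Ifit1 and 0.686 for Igtp, while the SD of Rsad2 was lowest without 8b (0.489). A further 6 encode receptors, cytokines or enzymes of inflammation, namely Trem1 (0.831), an amplifying receptor of neutrophils and monocytes, Cxcl2 (0.720), a neutrophil attractant, Ccr2 (0.682), the Ccl2 receptor of monocytes, Alox5 (0.643), the first enzyme of leukotriene synthesis, Ccl9 (0.680) and Il6 (0.687). The other 11 are Kcnip3, Lgals5, Depp1, Folr2, Lypd8l1, Lrrc15, Tfpi2, Slc17a5, Alas2, Omd and Tspan8, a tetraspanin, which was first of all with 0.862. The list without 13c and 15c shared 13 of the 25. The other places were taken by Slc6a20a, Slc6a13, Islr, Oasl, Dpp4, Aldh1a2, Foxc2, Hif3a, Il1b, Nos2, Mki67 and Oasl2.

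**Figure D1:**
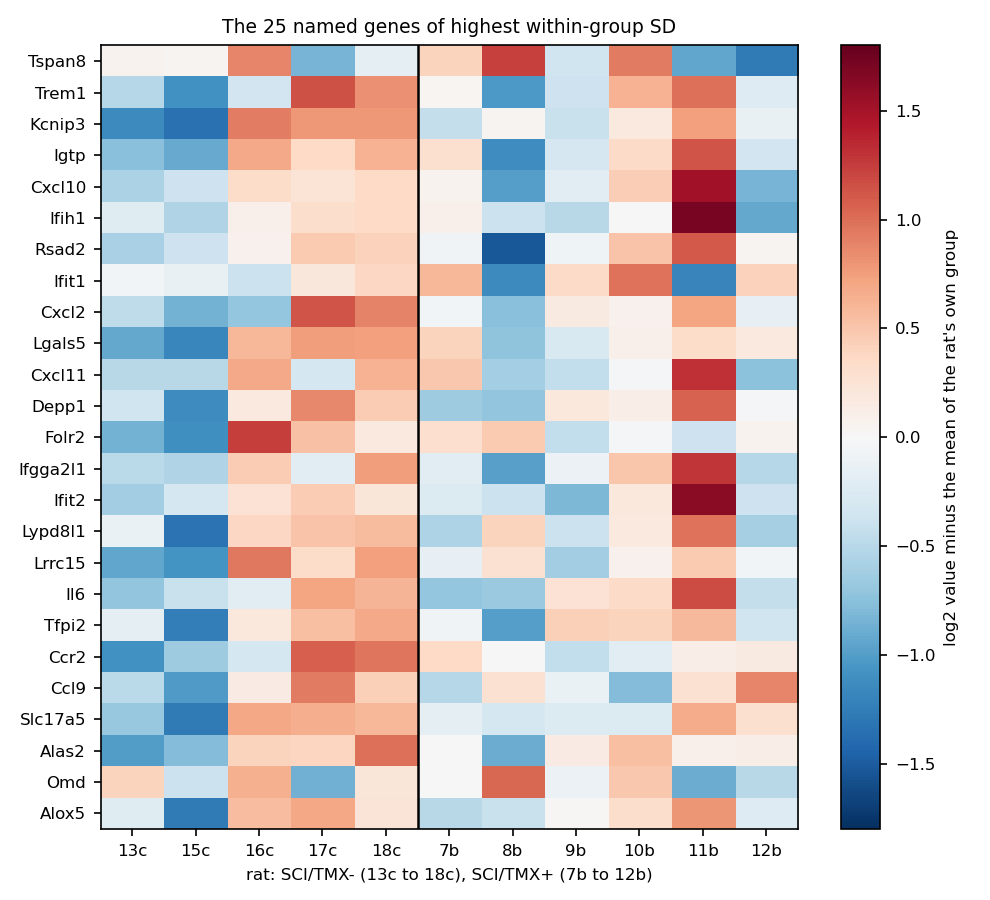
Centred log2 value of the 25 named genes with the highest within-group SD (rows, highest first) in each injured rat (columns), red above and blue below the mean of the rat's own group, with a black line between the treatment groups. Rat 11b is the reddest cell in the rows of Igtp, Cxcl10, Ifih1, Rsad2, Cxcl11, Ifgga2l1 and Ifit2 but the bluest in that of Ifit1, 13c and 15c are blue in most rows, and Tspan8 and Omd are red in 8b, 10b and 16c.

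Trem1 read 5.39, 4.81, 5.56, 7.05 and 6.73 in rats 13c, 15c, 16c, 17c and 18c, and ranged from 5.03 (8b) through a median of 5.97 to 7.06 (11b) in SCI/TMX+. Rats 17c, 18c, 10b and 11b were the high ones, and both treatments covered nearly the same range. Its SD in sham rats was 0.231. Ccr2 was high in 17c (7.33) and 18c (7.21) and lay between 5.16 and 5.93 in 13c, 15c and 16c. Over SCI/TMX+ it lay between 4.95 and 5.76, so that its spread was mainly among vehicle rats. The SD of Ccr2 fell from 0.682 to 0.480 without 13c and 15c, and to 0.583 without 13c alone. Kcnip3 read 6.05 and 5.85 in 13c and 15c, against 8.12, 7.98 and 7.98 in 16c, 17c and 18c and 7.13 to 8.30 in SCI/TMX+. Its SD of 0.827 fell to 0.372 without those 2 rats. Tspan8 behaved otherwise. It read 4.76, 4.73, 5.58, 3.86 and 4.53 in SCI/TMX- and 3.96 (12b), a median of 5.25 and 6.47 (8b) in SCI/TMX+, and its SD was 0.977 without 13c and 15c.

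Spread between rats was set against that of sham rats by a Levene-type fit, in which limma compares absolute deviations from the group mean across all 22 arrays. The adjusted p passed 0.05 for higher spread in SCI for 469 of 23188 transcripts (2.02%) and for lower spread for 14 (0.0604%). The SD itself was larger in SCI for 16189 transcripts (69.8%). The 3 named genes with the smallest p were Ubap2, a ubiquitin-associated protein, with SDs of 0.451 in SCI and 0.101 in sham (adjusted p = 0.00108), Ipo9, a nuclear import receptor (0.458 and 0.109), and Kcnip3 (0.827 and 0.209, adjusted p = 0.00146 for both). The count of higher calls was 2 without 13c alone and 8 without 15c alone, while it was 766, 897 and 907 without 16c, 17c and 18c, and leaving out any 1 other rat gave 254 to 501, the lowest without 1a of Sham/TMX-, 276 without 4a, 278 without 5a and 316 or more otherwise. The lower calls came to 0 without either of 13c and 15c, 5 without 23d, 6 without 11b, 8 without 21d, 9 without 10b and 24 without 16c. Ubap2 was 7.12 in 13c and had a median of 8.32 over SCI/TMX-, and SCI/TMX+ lay between 8.04 and 8.33. Without the 2 rats no transcript passed in either direction, and none passed with deviations taken from group medians. With all rats, 3387 transcripts had an unadjusted p under 0.05 for higher and 393 for lower spread. Lower spread was called for Sgk1, a kinase induced by glucocorticoids, whose SD was 0.279 in SCI and 0.831 in sham rats (adjusted p = 0.0329). Sgk1 lay between 9.29 and 10.5 in injured rats and between 7.58 and 9.99 in sham rats. Bbox1, an enzyme of carnitine synthesis, had 0.150 and 0.663 (adjusted p = 0.0482), with 2.36 to 2.82 in SCI, near the bottom of the scale, and 2.21 to 4.58 in sham.

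**Figure D2:**
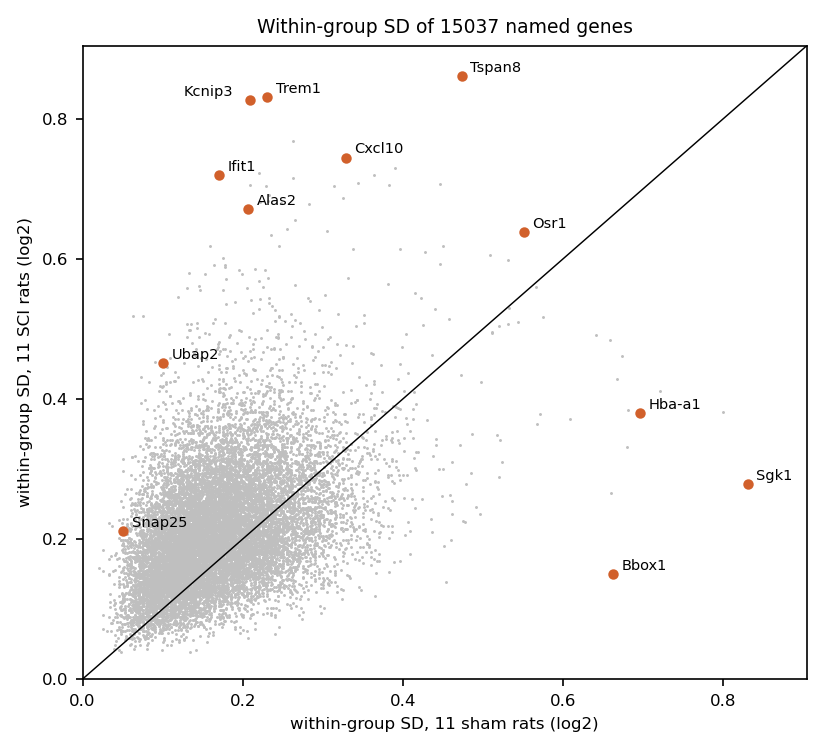
Within-group SD in the 11 injured rats (vertical) against the 11 sham rats (horizontal) for 15037 named genes, in log2 units, with the line of equal SD and 12 genes marked. Tspan8 (0.862 and 0.474) and Kcnip3 (0.827 and 0.209) lie far above the line, and Sgk1 (0.279 and 0.831) and Bbox1 (0.150 and 0.663) below it.

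The interferon-stimulated genes had the highest median pairwise correlation of the 40 lists over the 11 injured rats, a rank that they lost without 11b. These genes encode antiviral effectors, GTPases, antigen-processing parts and chemokines, and are switched on when STAT and IRF factors bind the interferon-stimulated response element (ISRE) in their promoters. Irf7 is itself such a gene and amplifies the response. Over 435 pairs of the 30 measured genes the median Pearson r of centred values was 0.565, against -0.001 over all transcript pairs (5th to 95th percentile -0.603 to 0.607). An r above 0.8 was found for 65 of the 435 pairs, where the share over all pairs was 0.707%. The median was 0.671 without 13c and 15c, 0.375 without 11b, and 0.113 in sham rats. Without 11b the immediate early genes (0.483), fibroblasts and collagens (0.445), glucocorticoid-induced genes (0.404) and cytokines and receptors (0.395) were above it. By the share of pairs with r above 0.8, red blood cell genes (18.2%) were above the interferon list (14.9%). The mean centred value of the list was 0.649 in 11b, 0.271 in 18c and 0.227 in 10b, and -0.327, -0.305 and -0.254 in 8b, 9b and 12b. Rats 13c and 15c had -0.217 and -0.221.

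The promoters of 4 of these genes are shown because the members share a known response element. The windows run from 250 bases before to 50 after the RefSeq start (build GRCr8), 5′ to 3′ on the gene's strand, with matches to GAAANNGAAA or its reverse complement TTTCNNTTTC in capitals. Irf7 is at chr1:205799974-205800273 (- strand), Cxcl10 at chr14:15988816-15989115 (+ strand), Ifit3 at chr1:241527076-241527375 (+ strand) and Cxcl11 at chr14:15973478-15973777 (+ strand).
Irf7: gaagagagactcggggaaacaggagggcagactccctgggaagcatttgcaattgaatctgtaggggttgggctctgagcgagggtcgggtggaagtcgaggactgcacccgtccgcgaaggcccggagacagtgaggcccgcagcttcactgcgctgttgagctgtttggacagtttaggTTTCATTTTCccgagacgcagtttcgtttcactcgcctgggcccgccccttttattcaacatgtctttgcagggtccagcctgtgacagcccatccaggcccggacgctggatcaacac
Cxcl10: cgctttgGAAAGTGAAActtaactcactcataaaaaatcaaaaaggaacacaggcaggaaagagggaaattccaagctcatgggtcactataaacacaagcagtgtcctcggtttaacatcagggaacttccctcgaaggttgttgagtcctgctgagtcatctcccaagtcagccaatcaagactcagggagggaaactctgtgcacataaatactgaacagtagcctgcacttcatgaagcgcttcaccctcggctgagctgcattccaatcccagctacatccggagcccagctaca
Ifit3: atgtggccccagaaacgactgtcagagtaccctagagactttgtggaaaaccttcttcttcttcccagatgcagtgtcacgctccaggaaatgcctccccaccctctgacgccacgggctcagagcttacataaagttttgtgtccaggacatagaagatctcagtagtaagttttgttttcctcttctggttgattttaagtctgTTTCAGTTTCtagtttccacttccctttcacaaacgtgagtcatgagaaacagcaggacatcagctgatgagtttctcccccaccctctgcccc
Cxcl11: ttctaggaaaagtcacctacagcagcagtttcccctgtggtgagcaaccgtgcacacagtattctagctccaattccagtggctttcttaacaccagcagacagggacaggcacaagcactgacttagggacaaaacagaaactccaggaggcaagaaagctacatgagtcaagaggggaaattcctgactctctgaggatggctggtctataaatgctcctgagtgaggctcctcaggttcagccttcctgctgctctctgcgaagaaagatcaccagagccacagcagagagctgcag
Of the 30 listed genes 23 were matched to a promoter window, and 16 of these (69.6%) held the motif on either strand, against 1034 of 27457 windows (3.77%) over all genes. Cxcl11 has no match in this window although its r with Irf7 was 0.832, and Oas1a has 2 matches with an r of 0.324. A match of letters is not evidence of binding.

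Irf7 read 5.99, 6.17, 6.46, 6.42 and 6.45 in 13c, 15c, 16c, 17c and 18c, and 6.01 (8b), a median of 6.32 and 7.48 (11b) in SCI/TMX+. Ifit2, an antiviral RNA-binding protein, read 5.27, 5.57, 6.15, 6.35 and 6.11 in the same vehicle rats and 4.90 (9b), 5.40 and 7.33 (11b) in SCI/TMX+. Cxcl10, the ligand of CXCR3 on T cells, read 7.05, 7.25, 7.95, 7.87 and 7.98, and 6.98 (8b), 7.90 and 9.49 (11b). In all 3 genes 11b was highest, and the 3 rats 16c, 17c and 18c exceeded 13c and 15c. In a limma fit of every transcript on Irf7 within the 11 rats, 6 of 23187 transcripts rose with Irf7 (0.0259%) and 1 without a symbol fell (0.00431%) at an adjusted p under 0.05, or 7 in either direction (0.0302%). The 6 were Ifit2 (slope 1.56 ± 0.15 SE, adjusted p = 0.00106), Cxcl10 (1.63 ± 0.17, 0.00126), Ifih1, a cytosolic sensor of viral RNA (1.52 ± 0.21, 0.0262), Cmpk2, Ifit3 and Ifgga2l1 (0.0348 each). A slope above 1 means that the gene differed more between rats than Irf7 did. Without 13c and 15c, Ifit2 (adjusted p = 0.0145) and Cxcl10 (0.0206) passed, and without 11b no transcript did. Leaving out any other single rat left 3 to 11 transcripts in either direction, with 3 without 7b, 12b, 13c or 16c, 4 without 8b, 10b or 18c and 11 without 15c. The slope did not pass a test of the difference from sham rats for any transcript (0%), at an adjusted p of 0.157 for Cxcl10, whose r with Irf7 was 0.949 in injured and -0.575 in sham rats.

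Each member of a list was also set against the first gene of its list, in 391 pairs, with an exact permutation test that reorders rats within their group (two-sided, n = 11). Of these, 27 passed an adjusted p of 0.05, 26 with a positive r, and 8 passed without 13c and 15c. Among sham rats 6 passed. Irf7, with 29 of the 391 pairs, had 9 of the 27. Ifit2 had r = 0.960 (rho = 0.891, exact permutation p = 0.000382, adjusted p = 0.0213, r = 0.895 without 11b and 17c, the 2 farthest from the median of Ifit2). Such values leave out the rats farthest for the list member, which need not be those farthest for the first gene of the list. Igtp, a GTPase that guards against vacuolar parasites, had r = 0.847 (rho = 0.864, exact permutation p = 0.000278, adjusted p = 0.0196, r = 0.887 without 15c and 8b). Igtp also passed without 13c and 15c (r = 0.915, adjusted p = 0.0453). The remaining 7 were Cxcl10, Ifit3, Stat2, Gbp2, Gbp5, Mx2 and Irgm, with r from 0.719 to 0.949. With 13c and 15c left out, Ifit2 had r = 0.961 (adjusted p = 0.118) and these 7 had r from 0.823 to 0.954, with adjusted p from 0.0711 to 0.190. Rsad2, an antiviral enzyme, had r = 0.830 and missed the threshold (adjusted p = 0.0717).

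Ifit1 was an exception within the list. It read 3.78, 3.70, 3.45, 4.04 and 4.21 in SCI/TMX- and 3.58 (11b), a median of 5.16 and 5.75 (10b) in SCI/TMX+. Rats 11b (3.58) and 8b (3.64) of SCI/TMX+ lay within the sham range of 3.18 to 3.92, while 7b, 9b, 10b and 12b lay between 5.13 and 5.75. The rat with the highest Irf7, Ifit2 and Cxcl10 therefore had the lowest Ifit1 of its group. Its r with Irf7 was -0.218 (rho = 0.045, exact permutation p = 0.711, adjusted p = 0.842), and 0.586 without 11b and 8b. Ifit genes are close copies of each other, and which copies a probe set reads was not tested. Oas2 also ran against the rest of the list, with r = -0.237 with the mean of the other members, at signals of 2.87 to 3.51.

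**Figure D3:**
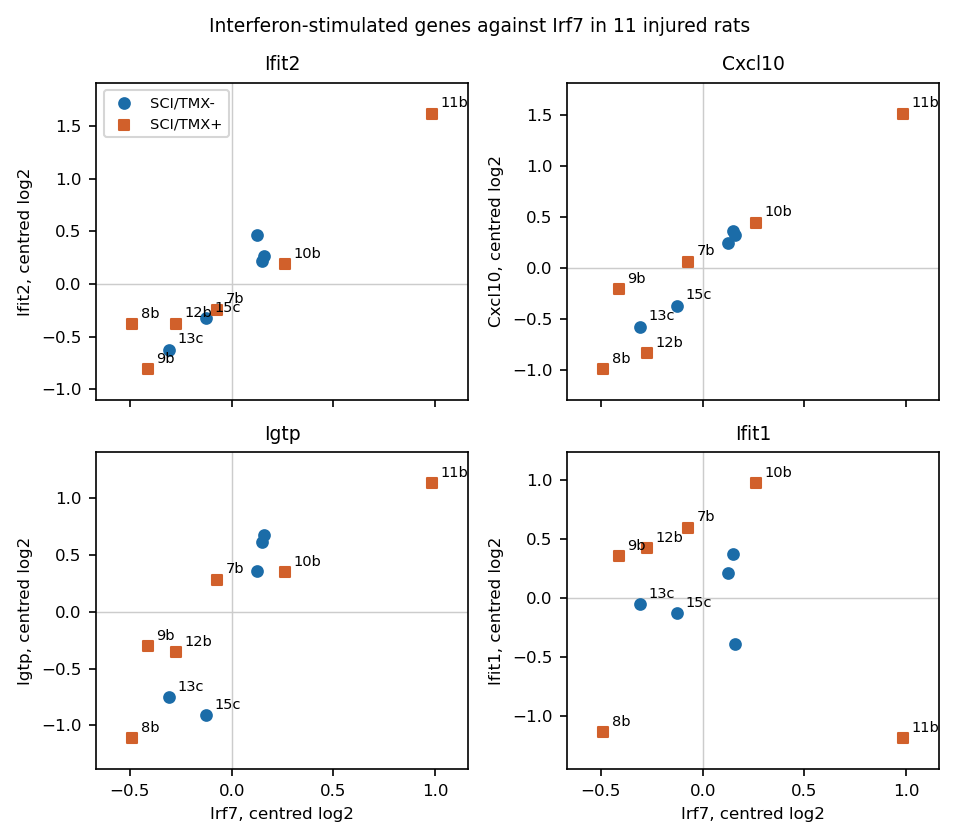
Centred log2 values of Ifit2, Cxcl10, Igtp and Ifit1 (vertical) against Irf7 (horizontal) in 11 injured rats, blue circles SCI/TMX- and orange squares SCI/TMX+, with rats named except 16c, 17c and 18c. Ifit2 (r = 0.960), Cxcl10 (0.949) and Igtp (0.847) rise with Irf7 up to rat 11b, and Ifit1 (-0.218) is low in both 8b and 11b.

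A second group was made of genes of the meninges and of fibroblasts, which surround the cord and its vessels. The 18 listed genes had a median r of 0.445 in injured and 0.471 in sham rats, 0.562 without 13c and 15c and 0.445 without 11b. Their mean centred value was high in 8b (0.322), 10b (0.320) and 16c (0.242) and low in 12b (-0.258), 11b (-0.256) and 17c (-0.178). The collagen genes Col1a2 and Col3a1 went with Col1a1, and all 3 encode chains of fibrillar collagens. Col3a1 had r = 0.934 (rho = 0.964, exact permutation p = 1.2e-05, the smallest that the reorderings can give, adjusted p = 0.00453, r = 0.934 without 11b and 8b). Col1a2 had r = 0.957 (rho = 0.936, exact permutation p = 9.3e-05, adjusted p = 0.0170, r = 0.946 without 10b and 11b). In the 9 rats other than 13c and 15c r was 0.953 for Col3a1 (adjusted p = 0.0453) and 0.951 for Col1a2 (0.0543). In sham rats r with Col1a1 was 0.955 for Col1a2 and 0.827 for Col3a1. Col1a1 itself was narrow in range, with 7.84, 8.09, 7.90, 7.42 and 7.71 in SCI/TMX- and 7.45 (11b), a median of 7.72 and 8.10 (8b) in SCI/TMX+.

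Genes used by the leptomeninges spread more widely. Aldh1a2, which makes retinoic acid, read 5.82, 5.76, 6.49, 5.64 and 5.91 in SCI/TMX- and 5.78 (11b), a median of 6.57 and 7.68 (8b) in SCI/TMX+. Slc6a13, a GABA and taurine transporter of meningeal cells, read 4.81, 5.07, 5.69, 4.30 and 4.95, and 4.48 (11b), 5.42 and 6.28 (8b). Omd, a small proteoglycan, read 5.95, 5.17, 6.20, 4.68 and 5.77, and 4.99 (11b), 5.81 and 6.90 (8b). In SCI/TMX- rat 16c was highest and 17c lowest for all 3, and in SCI/TMX+ 8b was highest and 11b lowest. Tspan8 also peaked in 16c and 8b, with its minimum in 17c and 12b. The r with Col1a1 was 0.768 for Aldh1a2 (rho = 0.782, exact permutation p = 0.0101, adjusted p = 0.0718) and 0.954 without 13c and 15c (adjusted p = 0.0453). The SDs were as large in sham rats for Aldh1a2 (0.566 against 0.560 in SCI) and close for Slc6a13 (0.531 against 0.598), while Omd had 0.265 against 0.656. Thbs1, a matricellular protein also made by platelets and macrophages, ran against the list (r = -0.439 with the mean of the others).

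Genes induced by glucocorticoids, the adrenal steroids released in stress, formed a further group. Over the 16 listed genes the median r was 0.476 in injured rats, 0.634 without 13c and 15c, 0.404 without 11b and 0.628 in sham rats. The list mean was 0.433 in 11b, 0.203 in 17c and 0.171 in 10b, and -0.287, -0.267 and -0.260 in 12b, 7b and 15c. Fkbp5, a chaperone that restrains the glucocorticoid receptor, read 7.04, 7.30, 7.34, 7.25 and 7.19 in SCI/TMX- and 7.25 (12b), a median of 7.95 and 8.63 (11b) in SCI/TMX+, so its spread was mainly among tamoxifen rats. Tsc22d3, an anti-inflammatory leucine zipper protein, went with it at r = 0.857 (rho = 0.891, exact permutation p = 0.0022, adjusted p = 0.0453), and r was 0.458 without 12b and 7b, so that the relation rests partly on these 2. Leaving out 13c and 15c gave r = 0.878 (adjusted p = 0.0453). Hif3a, an inducible member of the hypoxia factor family, had an SD of 0.614 and read 2.83, 2.92, 3.65, 3.93 and 3.64 in SCI/TMX- and 3.44 (12b), 4.38 and 4.95 (11b) in SCI/TMX+. Rats 9b, 10b and 11b were high for Fkbp5, Hif3a and Zbtb16.

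Il6, the cytokine that drives the acute phase response, was also highest in 11b. It read 4.79, 5.09, 5.29, 6.20 and 6.11 in SCI/TMX- and 5.29 (7b), a median of 5.90 and 7.16 (11b) in SCI/TMX+. Inhba, the activin A subunit, rose with it at r = 0.817 (rho = 0.791, exact permutation p = 0.0034, adjusted p = 0.0493, r = 0.852 without 15c and 17c). The last value keeps 11b, the highest rat for Il6. Without 13c and 15c r was 0.841 (adjusted p = 0.0953), and its r in sham rats was 0.730. The median r of the 21 cytokines and receptors was 0.379 in injured rats, 0.192 without 13c and 15c and -0.012 in sham rats. Among chemokines, which had a median r of 0.135 over 17 genes, the monocyte attractants Ccl2 and Ccl7 went together at r = 0.963 (rho = 0.855, exact permutation p = 0.000301, adjusted p = 0.0196, r = 0.886 without 8b and 9b). Ccl2 read 9.93, 9.78, 10.1, 10.2 and 10.1 in SCI/TMX- and 9.43 (8b), 10.0 and 10.4 (7b) in SCI/TMX+, and Ccl7 had its maximum and minimum in the same 2 tamoxifen rats. Cxcl6 followed Ccl2 at r = 0.864 (adjusted p = 0.0478). When 13c and 15c were left out, r was 0.961 for Ccl7 (adjusted p = 0.112) and 0.849 for Cxcl6 (0.166). In sham rats, where Ccl2 lay between 4.12 and 5.15, r with Ccl2 was -0.352 for Ccl7 and -0.237 for Cxcl6.

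Genes of dividing cells had a median r of 0.249 over 23 genes (0.260 without 13c and 15c, 0.005 in sham rats). Mki67, a marker of cycling cells, read 5.45, 5.17, 5.95, 5.92 and 5.07 in SCI/TMX- and 4.32 (11b), a median of 5.20 and 5.76 (7b) in SCI/TMX+. The spindle motor Kif11 (r = 0.826, adjusted p = 0.0450) and the replication helicase subunits Mcm2 (0.879, 0.0434) and Mcm4 (0.757, 0.0491) rose with it in the exact permutation test over 11 rats. Kif11 passed also without 13c and 15c (r = 0.832, adjusted p = 0.0453), although its signal was only 2.62 to 3.39, while Mcm2 (0.869, 0.0784) and Mcm4 (0.839, 0.137) did not. Cd68, a lysosomal protein of macrophages, had r = 0.760 with Mki67 (rho = 0.727, exact permutation p = 0.00686, adjusted p = 0.203 over 276 pairs of lead genes), which misses the threshold. Both were lowest in 11b among the tamoxifen rats. In the fit across all transcripts 1 transcript without a symbol rose with Cd68 (0.00431%). Without 13c and 15c 19 passed, and the named ones all fell as Cd68 rose, among them Cxcl10 (slope -2.14 ± 0.22 SE, adjusted p = 0.00942), Igtp, Ifih1, Ifit3 and Irf7 of the interferon list and Mertk, a receptor for uptake of dead cells (-1.07 ± 0.17, 0.0485). Rat 11b, the highest for Cxcl10, Igtp, Ifih1 and Irf7, was in that fit, and leaving it out as well was not tested. Cd68 with Irf7 had r = -0.582 over 11 rats (exact permutation, adjusted p = 0.343) and -0.387 without 11b and 13c. Without 13c and 15c it was -0.928 (adjusted p = 0.415).

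Globin genes, which in cord mark blood and mainly red cells, moved together in injured and in sham rats. Hba-a1 read 11.0, 10.9, 11.8, 12.0 and 12.0 in SCI/TMX- and 11.8 (8b), a median of 12.1 and 12.2 (9b) in SCI/TMX+, and 7.79 to 10.1 in sham rats. Its SD was 0.380 in injured rats, 0.138 without 13c and 15c and 0.697 in sham rats. Hbb had r = 0.884 with Hba-a1 (rho = 0.891, exact permutation p = 0.00134, adjusted p = 0.0375, r = 0.912 without 15c and 8b), and 0.955 in sham rats. Hbb-b1 (0.899) and Hbb-bs (0.898) also passed. Omitting 13c and 15c gave 0.859 for Hbb, 0.820 for Hbb-b1 and 0.712 for Hbb-bs, and none passed (adjusted p = 0.179, 0.179 and 0.197). The beta globin genes Hbb, Hbb-b1 and Hbb-bs are near-identical copies of each other, though not of the alpha globin gene Hba-a1, and their probes can share signal. Alas2, the first enzyme of heme synthesis in red cell precursors, had an SD of 0.672 in injured and 0.207 in sham rats. It read 4.02, 4.25, 5.43, 5.42 and 6.02 in SCI/TMX- and 4.69 (8b), 5.69 and 6.13 (10b) in SCI/TMX+. In the fit over all transcripts 556 rose (2.4%) and 165 fell (0.712%) with Hba-a1, together 721 (3.11%), and the slope differed from that in sham rats for 1280 (5.52%). Without 13c and 15c none passed either test. Without single rats the count in either direction was 0 (15c), 96 (17c), 118 (18c), 273 (13c), 336 (16c) and, in SCI/TMX+, 545 to 1037. The leading partners beside Hba-a3 were Lgals5, a galectin known from rat red cells (slope 1.75 ± 0.21 SE, adjusted p = 0.00532), Pde4b, a cAMP phosphodiesterase (0.93 ± 0.12, 0.00587), and Alg3, an enzyme of glycan assembly (1.37 ± 0.18, 0.00647).

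Snap25 showed the same dependence. It read 11.1 and 11.2 in 13c and 15c, against 11.7, 11.6 and 11.8 in 16c, 17c and 18c and 11.6 to 11.8 in SCI/TMX+. With it 529 transcripts rose (2.28%) and 155 fell (0.668%), together 684 (2.95%). Of the 23 other genes of the neuronal list 2 were among those that rose. None passed without 13c and 15c, and the count in either direction was 8 without 16c, 14 without 15c, 253 without 18c, 325 without 13c, 350 without 17c and 526 to 881 without 1 of the tamoxifen rats. The leading partners were Alg3 and Ppif (slopes 2.51 ± 0.29 and 2.82 ± 0.33 SE, adjusted p = 0.00521 for both). Gad1, an enzyme of GABA synthesis, had r = 0.949 with Snap25 (rho = 0.927, exact permutation p = 0.000162, adjusted p = 0.0170), and r = 0.732 without 13c and 15c (adjusted p = 0.260). Over the 24 neuronal genes the median r was 0.342, and 0.412 without the 2 rats.

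Among glial genes, the SD was larger in SCI than in sham rats for 19 of 19 oligodendrocyte and 14 of 15 resting astrocyte genes, where 69.8% of all transcripts were so. For reactive astrocyte genes it was larger for 12 of 19, with a median SD of 0.242 in SCI and 0.246 in sham rats. Oligodendrocyte precursor genes had 8 of 9 and resting microglia genes 4 of 9. A high share was not particular to glia, with 8 of 8 motor neuron and 19 of 21 ribosomal protein genes. The median SD of the oligodendrocyte and resting astrocyte lists was 0.172 and 0.218 in SCI, 0.150 and 0.198 without 13c and 15c, and 0.0780 and 0.103 in sham rats. Of the 34 genes of these lists 1 passed the test for higher spread, where 2.02% of all transcripts passed. Aspa, the enzyme that breaks down N-acetylaspartate in oligodendrocytes, had SDs of 0.315 and 0.050. It read 9.00, 8.97, 9.22, 8.84 and 9.27 in SCI/TMX- and 8.71 (12b), a median of 9.06 and 9.83 (11b) in SCI/TMX+, and only 11b reached the sham range of 9.58 to 9.90. Slc6a11, an astrocyte GABA transporter, was also highest in 11b (9.49), with 8.68 to 9.14 in the other injured rats and 9.73 to 10.1 in sham rats. It went with the water channel Aqp4 at r = 0.796 (rho = 0.636, exact permutation p = 0.00255, adjusted p = 0.0478), and r was 0.887 without 13c and 15c (adjusted p = 0.151). The oligodendrocyte and resting astrocyte lists had their highest mean in 11b (0.192 and 0.252) and a low one in 12b (-0.153 and -0.127). Ugt8, an enzyme of myelin lipid synthesis, ran against its list (r = -0.760 with the mean of the others) and read 8.42 in 10b and 9.38 in 15c. Mbp had an SD of 0.067, and no transcript passed (0%) with Mbp or with S100a9, a neutrophil calprotectin subunit, while 659 and 610 of 23187 had an unadjusted p under 0.05.

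**Figure D4:**
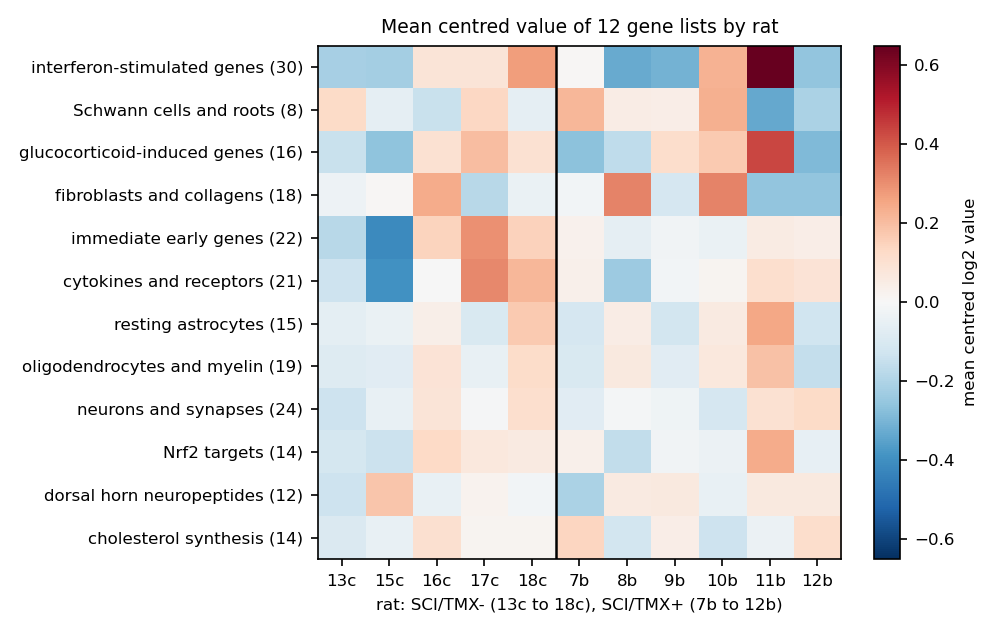
Mean centred log2 value of the members of 12 gene lists (rows, number of genes in brackets, ordered by median pairwise r) in each injured rat (columns), with a black line between the treatment groups. Rat 11b is highest for interferon-stimulated (0.649) and glucocorticoid-induced genes (0.433), 8b and 10b for fibroblasts and collagens (0.322 and 0.320), and 15c lowest for immediate early genes (-0.414).

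Immediate early genes, transcription factors and feedback regulators induced within minutes of a stimulus, had a median r of 0.415 in injured rats and 0.052 without 13c and 15c, against 0.056 in sham rats. Egr1 read 8.92 and 8.71 in 13c and 15c and 9.80 to 10.2 in the other 9 rats, and Zfp36, which destabilises cytokine mRNA, read 7.15 and 7.11 in them and 8.13 to 9.10 in the rest. Genes of Schwann cells and nerve roots, which can be left on a piece of cord, had a median r of 0.491 in injured and 0.666 in sham rats, 0.631 without 13c and 15c and 0.294 without 11b. Their list mean was -0.335 in 11b, -0.205 in 12b, 0.232 in 10b and 0.216 in 7b. Hypoxia and glycolysis genes had a median r of 0.136, and within them Hk2, a hexokinase, rose with Vegfa, the main growth factor of vessels, at r = 0.882 (rho = 0.827, exact permutation p = 0.000845, adjusted p = 0.0300, r = 0.864 without 13c and 15c, adjusted p = 0.0453). The single negative pair past the threshold was Mmp13, a collagenase, with Timp1, the inhibitor of matrix metalloproteinases (r = -0.927, rho = -0.955, exact permutation p = 0.00306, adjusted p = 0.0478), with r = -0.899 without 13c and 15c (adjusted p = 0.126). Mmp13 lay between 2.18 and 2.74, near the bottom of the scale, and Timp1 between 9.50 and 10.2.

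**Figure D5:**
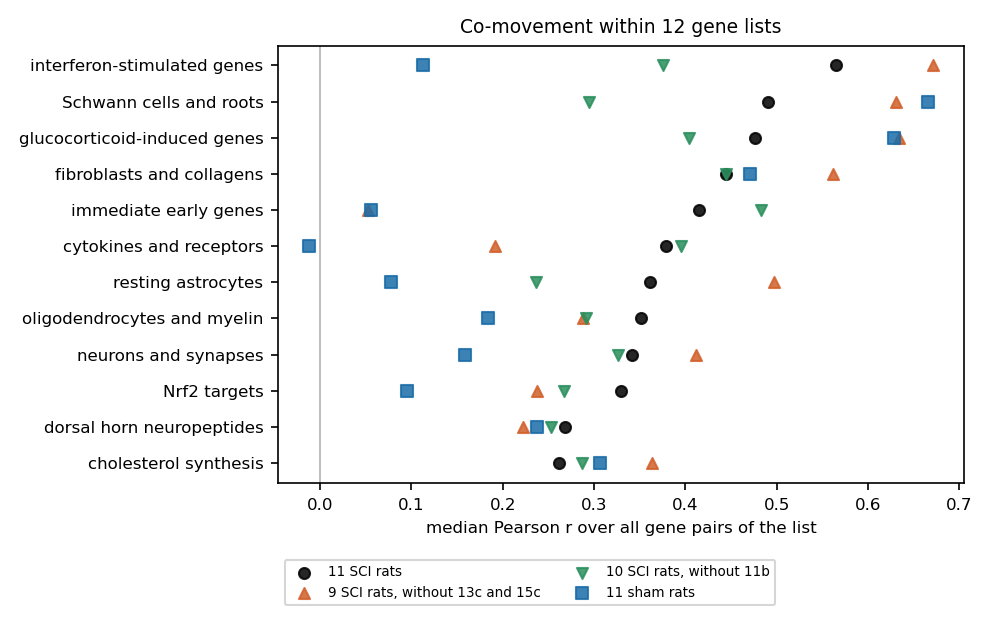
Median Pearson r over all gene pairs of 12 lists in 11 injured rats (black circles), without 13c and 15c (orange triangles), without 11b (green triangles) and in 11 sham rats (blue squares). Interferon-stimulated genes have 0.565, 0.671, 0.375 and 0.113, and immediate early genes drop from 0.415 to 0.052 without 13c and 15c.

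Across the groups, 24 lead genes, 1 per list, gave 276 pairs, of which none passed an adjusted p of 0.05 (up to 2 without 13c or 15c alone, 1 without 17c or 18c) and 46 had an unadjusted p under 0.05 by exact permutation over 11 rats. With Spearman's rho 1 pair passed, Hspa1a, an inducible heat shock protein, with Vegfa (r = 0.884, rho = 0.945, adjusted p of r = 0.153). The smallest p for r was that of Aqp4 with Irf7 (r = 0.763, rho = 0.845, exact permutation p = 0.000891, adjusted p = 0.153), and r was 0.811 without 11b and 15c. Fos had r = -0.947 with Cldn5, the tight junction claudin of endothelium (rho = -0.891, exact permutation p = 0.0024, adjusted p = 0.153), and -0.723 without 13c and 15c. Irf7 and Il6 had r = 0.762 (rho = 0.673, exact permutation p = 0.00972, adjusted p = 0.203), and 0.497 without 11b and 8b.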

How the data were processed

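The authors hybridised RNA of 1 rat per array to Clariom S arrays, after amplification with a labelling kit for degraded RNA, and kept samples with an RNA integrity number of 7 or more. The deposited table holds log2 values of 23188 transcripts on 22 arrays, made by the authors with the RMA function of oligo 1.56 (background correction, quantile normalization, probe summary), and was used as deposited. Quantile normalization removes differences in total signal between arrays. No depth applies to arrays, and the number of rats limits the precision. Replicates are separate rats. The platform annotation gives 15049 transcripts 1 symbol (15037 genes) and 8139 none or several.

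From these values, each transcript was centred on the mean of its treatment group (9 residual degrees of freedom). Covariation with 6 genes (Snap25, Mbp, Cd68, S100a9, Hba-a1, Irf7), differences of slope from sham rats and the Levene-type comparison of spread were fitted with limma 3.58.1 in R 4.3.3, two-sided, and adjusted by Benjamini and Hochberg over all transcripts. Pairs of genes were tested by exact permutation over 86400 reorderings of rats within their groups, with adjustment over the 276 pairs of 24 lead genes, and over 391 pairs of list members with the lead gene of their list, which were added after values had been seen. In simulated data of 23188 transcripts with independent normal noise, a spread raised 4 times was recovered for 25 of 200 (12.5%), so the comparison of spread misses most such changes. Slopes of 1 were recovered for 200 of 200 transcripts, on a simulated lead gene with the largest within-group variance of all transcripts. The fitted genes vary less, so that recovery does not tell how many slopes their fits miss.

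Named are the 25 genes of highest SD, the 10 of smallest p for spread in each direction, the lead genes, 6 partners of each fitted gene in each direction, 10 genes at each end of 3 components, and up to 4 members of each of 40 lists by SD, with pairs past the threshold. Not all of these are described. The text also gives marker genes and list members that run against their list, which were chosen after their values were seen. The members and lists were chosen with earlier results of these data known. Without replicate arrays of 1 rat, the spread between rats includes dissection, RNA and array error. Alternatives were other moderation, a filter on low signal, array medians, 1 transcript per gene, medians for means, each rat left out and 13c and 15c left out.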

Additional observations from a re-analysis of the deposited data

Results flagged for a closer look

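Of 176 groups of values tested with Dixon's criterion (genes of highest SD, lead genes and list means in each SCI group), 3 held a rat far from the others, where chance flags about 1 in 20. Prx, a myelin protein of peripheral nerve, was 7.153 in rat 16c against 7.455 to 7.556 in the other 4 rats of SCI/TMX-. The mean centred value of cytokines and receptors was -0.236 in 8b against -0.016 to 0.111 in the rest of SCI/TMX+, and that of ribosomal proteins was -0.117 in 11b against 0.007 to 0.077.

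The slope on Hba-a1 differed between injured and sham rats for 1280 of 23187 transcripts (5.52%, limma, adjusted p under 0.05). The 12 leading named partners were chosen for their slopes in injured rats, so the count of 11 among them (all but Hba-a3) is a description and no independent support. The slope in SCI minus that in sham was 1.533 for Lgals5, 1.460 for Alg3, 1.394 for Zfp36, 1.224 for Ubap2l and 0.976 for Pde4b. It was -0.976 for Serpina10, -0.911 for Apobec2, -0.895 for Ykt6, -0.795 for Psmb6, -0.761 for Taf11 and -0.672 for Sfnl1. No transcript passed without 13c and 15c.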

How the results depend on the processing

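Leaving out 13c and 15c changed the counts of transcripts past the threshold from 684 to 0 with Snap25, from 721 to 0 with Hba-a1, from 7 to 2 with Irf7, from 1 to 19 with Cd68, and from 469 and 14 to 0 and 0 for higher and lower spread in SCI. It changed slopes that differ from sham from 1280 to 0 with Hba-a1 and from 0 to 2 with Cd68, list pairs from 27 to 8, the first component from 28.9% to 23.1% and the median SD from 0.206 to 0.181. Moderation with trend and robust gave 1330 with Snap25, 1448 with Hba-a1, 18 with Irf7 and 2 with Cd68. Leaving out transcripts of low signal gave 1260, 1418 and 0 with Snap25, Hba-a1 and Cd68, 738 and 8 for spread, and 40.4% for the first component. With 1 transcript per gene, Cd68 had 0 and lower spread 8, and after subtracting array medians lower spread had 9. Deviations from group medians gave 0 and 0 for spread and a median SD of 0.214, and unit variance gave 24.96% for the first component. Spearman's rho called 1 pair of lead genes where Pearson's r called 0.

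Over the 11 rats left out in turn, counts ran from 8 to 881 with Snap25 (8 without 16c), 0 to 1037 with Hba-a1 (0 without 15c), 0 to 11 with Irf7 (0 without 11b) and 0 to 2 with Cd68, and stayed 0 with Mbp and S100a9. Higher spread ran from 2 to 907 (2 without 13c) over all rats left out, lower spread from 0 to 24, pairs of lead genes from 0 to 2, the first component from 24.0% to 31.7%, and the median SD from 0.193 to 0.207. The causes were not tested.

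Replicate numbers, which are accession order, did not pair the rats, with correlations of deviations of -0.004, 0.091, -0.207, -0.030 and 0.226 between same-numbered rats. With the number as a replicate block, 1 transcript passed with Snap25 and 0 with Hba-a1, Irf7 and Cd68, while spread kept 326 and 11. The block was not run for pairs of genes, since too few numbers are shared. Median r of lists moved by over 0.1 for 3 of 40 with Spearman's rho and for 14 without 13c and 15c.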
